A study of Mus musculus with 28 samples.

Results

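The genes described here are the 8 measured members of the mouse MHC class II pathway that were listed by name: the class II chains H2-Aa, H2-Ab1 and H2-Eb1, the peptide-loading genes H2-DMa, H2-DMb1 and H2-DMb2, the invariant chain Cd74 and the class II transactivator Ciita. They were found by matching the Ensembl IDs of the deposited count table to mouse symbols, and they are 8 of 53647 gene IDs. All 8 had counts. In the fit of the CD31 libraries 7 of them passed the filter on low counts (H2-DMb2 did not), and in the fit of the PDGFRb libraries 8 passed.

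RNA was read from cells sorted out of the brains of PDGFRb-CreERT2; Rosa-tdTomato mice, in which tamoxifen (2 mg daily for 5 days) switches on the red reporter tdTomato in cells that express PDGFRb. All groups share this background. Brain metastases (BrM) were grown after injection of brain-homing cancer cells into the heart, either Sv2T3-BrM1 cells of lung origin or PyMT-BrM3 cells of breast origin, and non-tumor brain was the reference tissue. After cells positive for CD45, CD11B or EPCAM had been gated out, mural cells were sorted as tdTomato-positive (PDGFRb) and endothelial cells as CD31-positive. There were 4 PDGFRb libraries of lung BrM, 4 of breast BrM and 5 of non-tumor brain, and 5 CD31 libraries of lung BrM, 5 of breast BrM and 5 of non-tumor brain, from 15 mouse labels of which 13 gave both sorts. The reporter marks any cell that expressed PDGFRb at the time of tamoxifen, 2 of the lung labels name 2 mice each, and each BrM origin rests on 1 cancer cell line.

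Libraries held 7.11 to 23.9 M counts (M, mega), and 3 counts in a library equalled 0.119 to 0.498 CPM (counts per M counts, after TMM scaling). The PDGFRb breast BrM library of mouse 51950 (7.11 M counts, 9174 genes detected) and the CD31 lung BrM library of label 56195-56520 (12601 genes) stood apart from the other 26 libraries, which had 15082 to 22752 genes. The endothelial gene Pecam1 stood at 591.8 to 1436.6 CPM in CD31 libraries and at no more than 11.5 CPM in PDGFRb libraries. The summed level of 10 mural markers had a median of 372.5 CPM in PDGFRb lung BrM libraries (268.1 to 9145.1 CPM) and of 29547.3 CPM in PDGFRb non-tumor libraries, so 3 of the 4 libraries labelled PDGFRb lung BrM were nearly without mural RNA. For mouse 54135, a non-tumor animal, the cell type label names the opposite sort from the title in both libraries. They were grouped by title, and Pecam1 and Pdgfrb in them follow the titles.

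MHC class II molecules present peptides from the lysosome to CD4+ T cells. Their alpha and beta chains pair in the endoplasmic reticulum around the invariant chain, CD74, which fills the peptide groove until lysosomal proteases cut it away, and H2-DM then exchanges the remaining fragment for a peptide. CIITA, itself induced by interferon-gamma, binds no DNA but is recruited by the RFX, CREB and NF-Y factors that sit on the X and Y boxes of class II promoters. Dendritic cells, B cells and activated macrophages and microglia hold these genes at high levels, while endothelial cells and pericytes can acquire them under interferon-gamma. CD74 at the cell surface is also a receptor for the cytokine MIF.

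The promoters below are shown because the X and Y boxes of class II promoters, described above, lie near the start of a gene. They are the 4 windows in which letters of these boxes were found, whether or not the gene was called in the tests below. RefSeq promoter windows (GRCm38.p6, 250 bases before to 50 bases after a gene's start) were at hand for 5 of the 8 members, in 6 windows. All lie on chromosome 17: chr17:34144999-34145298 on the plus strand for H2-DMb2, chr17:34152941-34153240 on the plus strand for H2-DMb1, chr17:34287774-34288073 on the minus strand for H2-Aa and chr17:34305617-34305916 on the plus strand for H2-Eb1. Capitals mark TGATTGG (the core of the Y box) and AACNGATG (a stretch of the X box), which do not overlap each other.
H2-DMb2: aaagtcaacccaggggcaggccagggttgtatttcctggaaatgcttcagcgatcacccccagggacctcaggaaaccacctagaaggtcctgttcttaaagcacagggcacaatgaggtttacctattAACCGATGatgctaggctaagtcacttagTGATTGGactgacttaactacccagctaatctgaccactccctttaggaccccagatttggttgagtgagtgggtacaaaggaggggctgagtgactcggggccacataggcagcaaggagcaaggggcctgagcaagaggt
H2-DMb1: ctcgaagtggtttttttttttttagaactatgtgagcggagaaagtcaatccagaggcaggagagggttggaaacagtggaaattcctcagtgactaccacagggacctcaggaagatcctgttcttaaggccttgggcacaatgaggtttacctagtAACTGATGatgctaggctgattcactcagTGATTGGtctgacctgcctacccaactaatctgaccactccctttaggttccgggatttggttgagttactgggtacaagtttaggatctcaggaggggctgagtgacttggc
H2-Aa: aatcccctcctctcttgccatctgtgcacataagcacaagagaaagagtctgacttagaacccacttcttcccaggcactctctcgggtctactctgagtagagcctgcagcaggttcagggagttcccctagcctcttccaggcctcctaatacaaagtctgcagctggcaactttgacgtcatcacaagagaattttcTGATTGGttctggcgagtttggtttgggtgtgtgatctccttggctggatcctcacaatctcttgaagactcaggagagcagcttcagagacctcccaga
H2-Eb1: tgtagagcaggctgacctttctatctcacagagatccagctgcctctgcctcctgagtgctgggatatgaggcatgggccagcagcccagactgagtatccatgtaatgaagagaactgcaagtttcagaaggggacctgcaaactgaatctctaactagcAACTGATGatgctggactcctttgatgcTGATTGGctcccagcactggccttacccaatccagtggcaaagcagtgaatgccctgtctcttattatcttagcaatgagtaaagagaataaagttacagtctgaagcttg

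TGATTGG was found in all 4 of these windows, with its first letter 92, 63, 50 and 61 bases before the start of H2-DMb2, H2-DMb1, H2-Aa and H2-Eb1. AACNGATG was found in 3 of them, 121, 92 and 89 bases before the start of H2-DMb2, H2-DMb1 and H2-Eb1. The first letters of both motifs lay 29, 29 and 28 bases apart in those 3 promoters. Both windows of H2-DMa, which are not printed, held neither run of letters. Over the 32851 promoter windows of the table, searched on both strands, TGATTGG occurred in 7.82% and AACNGATG in 2.32%. The motifs were chosen after the promoters had been read, and a match describes letters only.

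Cd74 had the largest difference of the tested members from non-tumor brain in CD31 libraries of both BrM origins. In CD31 lung BrM it stood at 81.8, 37.6, 82.3, 18.0 and 0 CPM in labels 51435, 51697, 54957, 55169-70 and 56195-56520. In CD31 breast BrM it stood at 16.6, 360.5, 18.4, 894.0 and 1074.0 CPM in mice 51950, 52599, 52865, 53072 and 53142. In CD31 non-tumor libraries it stood at 1.4, 3.48, 4.88, 2.68 and 2.15 CPM in mice 53680, 54132, 54135, 56727 and 56740. All 5 breast BrM libraries lay above all 5 non-tumor libraries, with 3 of them at 360.5 CPM or more and 2 below 20 CPM. In lung BrM 4 of 5 libraries lay above the non-tumor range, and the library at 0 was the one with few detected genes.

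**Figure D1:**
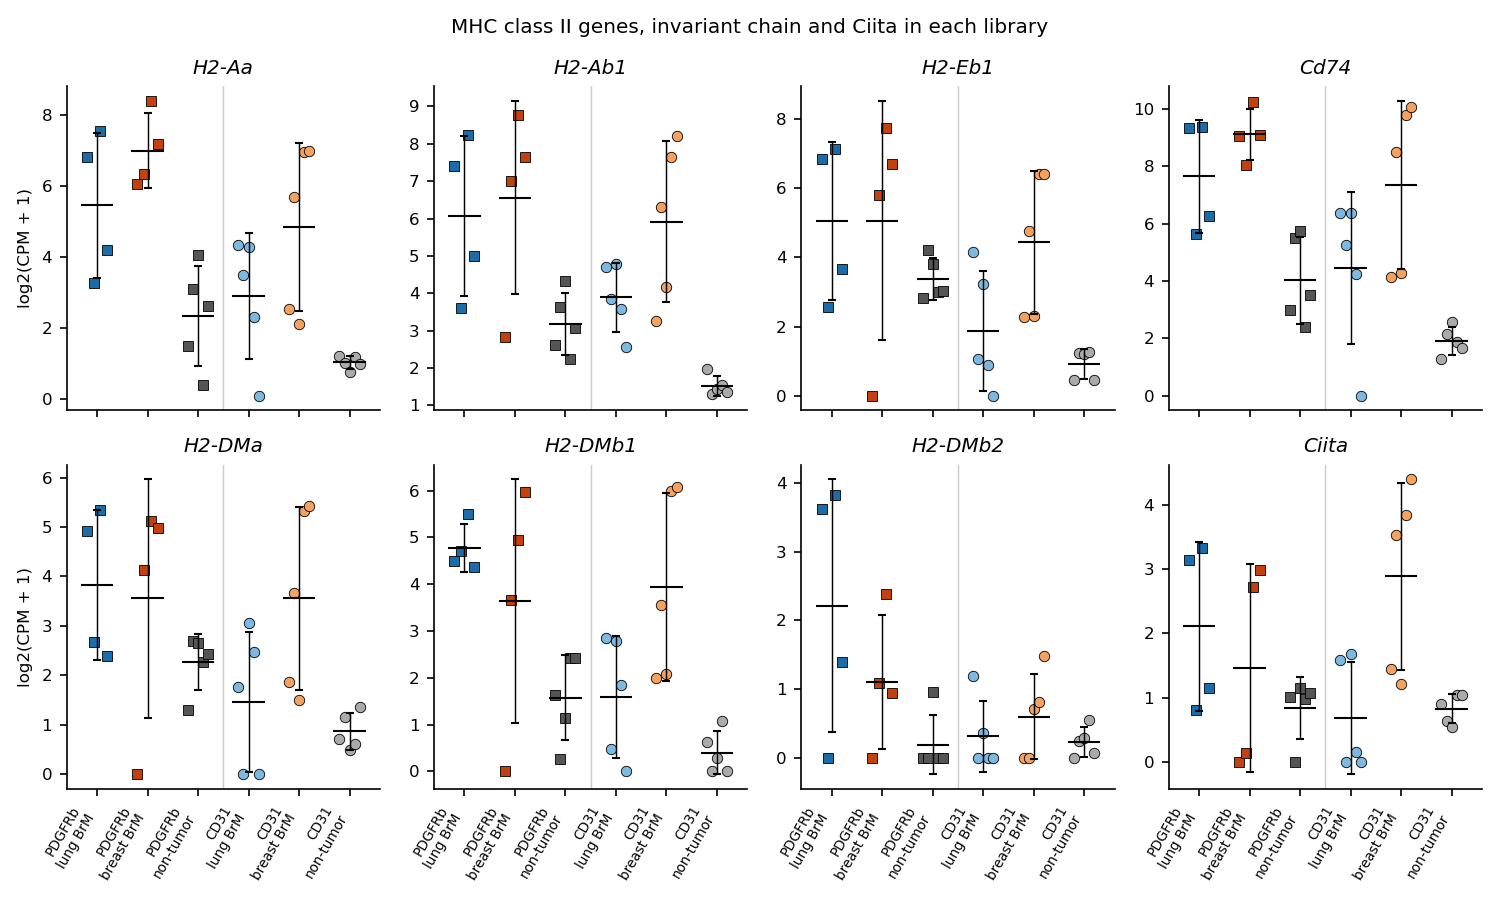
Levels of the 8 genes as log2(CPM + 1) in each of the 28 libraries, by group, with points for libraries and bars for the group mean ± SD. In CD31 libraries the breast BrM points of Cd74 run from 16.6 to 1074.0 CPM, all above the 5 non-tumor points, and H2-DMb2 lies near 0 in all CD31 groups.

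In CD31 breast BrM against non-tumor brain, 7 of the 7 members tested were higher (quasi-likelihood test of edgeR, called at an adjusted p under 0.05 after Benjamini-Hochberg), where 18.6% of the 14876 genes tested were called higher. The median log2 difference of these 7 was 5.91 and that of all genes tested was 0.04. A gene can pass the filter through the group in which it is high, so the count and the median describe the genes tested and not the list. Cd74 was higher by 7.37 ± 1.39 on the log2 scale (SE, n = 5 and 5, adjusted p = 7.32e-04), a fold of 166. None of the 7 had overlapping CPM values in CD31 breast BrM and non-tumor libraries, where 18% of all genes tested had every breast BrM value above every non-tumor value.

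Of the class II chains, H2-Ab1, the beta chain of the I-A molecule, averaged 119 ± 124 CPM in CD31 breast BrM and 1.92 ± 0.573 CPM in CD31 non-tumor libraries (SD, n = 5 each). Its 5 breast BrM values were 8.52, 78.2, 17.1, 198.7 and 294.7 CPM and its non-tumor values 2.91, 1.49, 1.7, 1.92 and 1.58 CPM. The breast values spread over more than an order of magnitude and the non-tumor values stayed together. H2-Ab1 was higher by 5.98 ± 0.87 (log2 ± SE, adjusted p = 6.94e-05). H2-Aa, the alpha chain of I-A, stood at 4.76, 50.8, 3.32, 123.5 and 125.5 CPM in CD31 breast BrM and at 1.29, 0.995, 0.681, 1.28 and 0.971 CPM in CD31 non-tumor libraries. The same 3 mice, 52599, 53072 and 53142, were high for both chains. H2-Aa was higher by 5.91 ± 1.16 (adjusted p = 0.001), and H2-Eb1, the beta chain of the I-E molecule, by 5.44 ± 1.28 (adjusted p = 0.00405).

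H2-DMa and H2-DMb1 were highest in the same 3 mice, and H2-DMb2 was not. H2-DMa, the alpha chain of H2-DM, stood at 2.64, 11.7, 1.83, 39.3 and 42.1 CPM in CD31 breast BrM, against 0.646, 1.24, 0.397, 0.525 and 1.58 CPM in CD31 non-tumor libraries, and was higher by 4.50 ± 1.27 on the log2 scale (edgeR adjusted p = 0.0125). H2-DMb1, a beta chain of H2-DM, stood at 2.97, 10.7, 3.26, 62.9 and 66.5 CPM in CD31 breast BrM, against 0.538, 0, 0.227, 1.11 and 0 CPM in CD31 non-tumor libraries. It was higher by 6.29 ± 1.45 (adjusted p = 0.00336). H2-DMb2, a near copy of H2-DMb1, reached at most 1.78 CPM in CD31 breast BrM and 0.466 CPM in CD31 non-tumor libraries, and had no counts in breast mouse 52599. The estimated counts of both H2-DMb genes held fractions in 10 of the 28 libraries, so the split of reads between them is uncertain.

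Ciita had the lowest levels of the called members and the least firm call. It stood at 1.74, 10.5, 1.32, 13.3 and 20.0 CPM in CD31 breast BrM and at 0.861, 0.56, 0.454, 1.05 and 1.07 CPM in CD31 non-tumor libraries. Mice 52599, 53072 and 53142 were again the high ones, and the values did not overlap. Ciita was higher by 3.57 ± 1.16 (edgeR adjusted p = 0.0283), a fold of 11.9. The call was lost without CD31 breast BrM mouse 53072 (adjusted p = 0.0516) or 53142 (0.077), and without any 1 of the non-tumor mice 53680 (0.0612), 54132 (0.066), 54135 (0.0688), 56727 (0.0531) or 56740 (0.054). For the other 6 members all 15 fits that left out 1 CD31 library kept the call. The estimate of H2-Ab1 fell to 5.36 without breast BrM mouse 53142, and that of H2-DMb1 became 7.23 without non-tumor mouse 56727.

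Dates written in the column names, whose meaning is not stated, put breast BrM and non-tumor libraries together on 2 dates, lung BrM and non-tumor libraries together on 1 other, and breast and lung BrM libraries together on none. On the earlier of the breast dates Cd74 averaged 455.3 CPM in CD31 breast BrM and 1.4 CPM in the CD31 non-tumor library, and on the later one it averaged 484.3 CPM in CD31 breast BrM and 4.88 CPM in the CD31 non-tumor library. With 1 to 3 libraries per group and date these values have no test of their own. On both dates 8 of 8 members were higher in CD31 breast BrM, and the share of all genes with this order was not counted. With the date as a covariate only H2-Ab1 kept its call in CD31 breast BrM (5.72, edgeR adjusted p = 0.0315), and Cd74 stood at 7.32 (adjusted p = 0.0785). Of all 14876 genes, 1353 were called higher in that fit.

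In CD31 lung BrM against non-tumor brain, 3 of 7 members tested were higher, against 20.4% of all genes tested. Their median log2 difference was 3.02 and that of all genes 0. H2-Ab1 stood at 25.0, 13.3, 26.8, 10.9 and 4.9 CPM in CD31 lung BrM, all above the 5 CD31 non-tumor values given above, and was higher by 3.12 ± 0.77 (log2 ± SE, edgeR adjusted p = 0.00517). Cd74 was higher by 3.96 ± 1.21 (adjusted p = 0.018), a fold of 15.6. H2-Aa stood at 19.1, 10.2, 18.4, 3.9 and 0.0621 CPM in CD31 lung BrM and was higher by 3.35 ± 1.05 (adjusted p = 0.0207), with 4 of 5 lung values above the non-tumor range.

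The other 4 members tested in CD31 lung BrM did not pass. H2-Eb1 differed by 2.55 (edgeR adjusted p = 0.0965), H2-DMb1 by 3.02 (adjusted p = 0.0784) and H2-DMa by 1.73 (adjusted p = 0.256). Without label 56195-56520, which had 0 counts of all 3 genes, H2-Eb1 (2.87, adjusted p = 0.0334) and H2-DMb1 (3.35, adjusted p = 0.0279) passed, giving 5 calls. The share of all genes called in that fit was not counted. Ciita stood at 2.01, 0, 2.22, 0.113 and 0 CPM in CD31 lung BrM, which overlapped the CD31 non-tumor values, and its difference was 0.16 ± 1.08 (adjusted p = 0.922).

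CD31 lung BrM was set against CD31 breast BrM in the same fit. No member was called by edgeR (adjusted p 0.0564 to 0.275), where 1.55% of all genes tested were called lower in lung BrM. Before adjustment 7 of 7 had an edgeR p under 0.05, and the share of all genes under it was not counted. Their median log2 difference was -2.89, against -0.03 over all genes. These 7 moved together over the CD31 libraries (Pearson's r with the mean of the other members 0.908 to 0.974), so they are not 7 separate results. Cd74 averaged 43.9 ± 37.2 CPM in CD31 lung BrM and 473 ± 491 CPM in CD31 breast BrM (SD, n = 5 each), a difference of -3.41 ± 1.14. Ciita averaged 0.869 ± 1.14 CPM in CD31 lung BrM and 9.37 ± 7.94 CPM in CD31 breast BrM, also a difference of -3.41 (SE 1.16, adjusted p = 0.162). The lung values lay within or below the breast values for these genes. H2-Ab1 was called lower in lung BrM without breast BrM mouse 51950 (-3.17, adjusted p = 0.0143) or 52865 (-3.15, adjusted p = 0.0276), which were the low mice of the breast group, and DESeq2 called H2-Ab1 and Ciita.

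**Figure D2:**
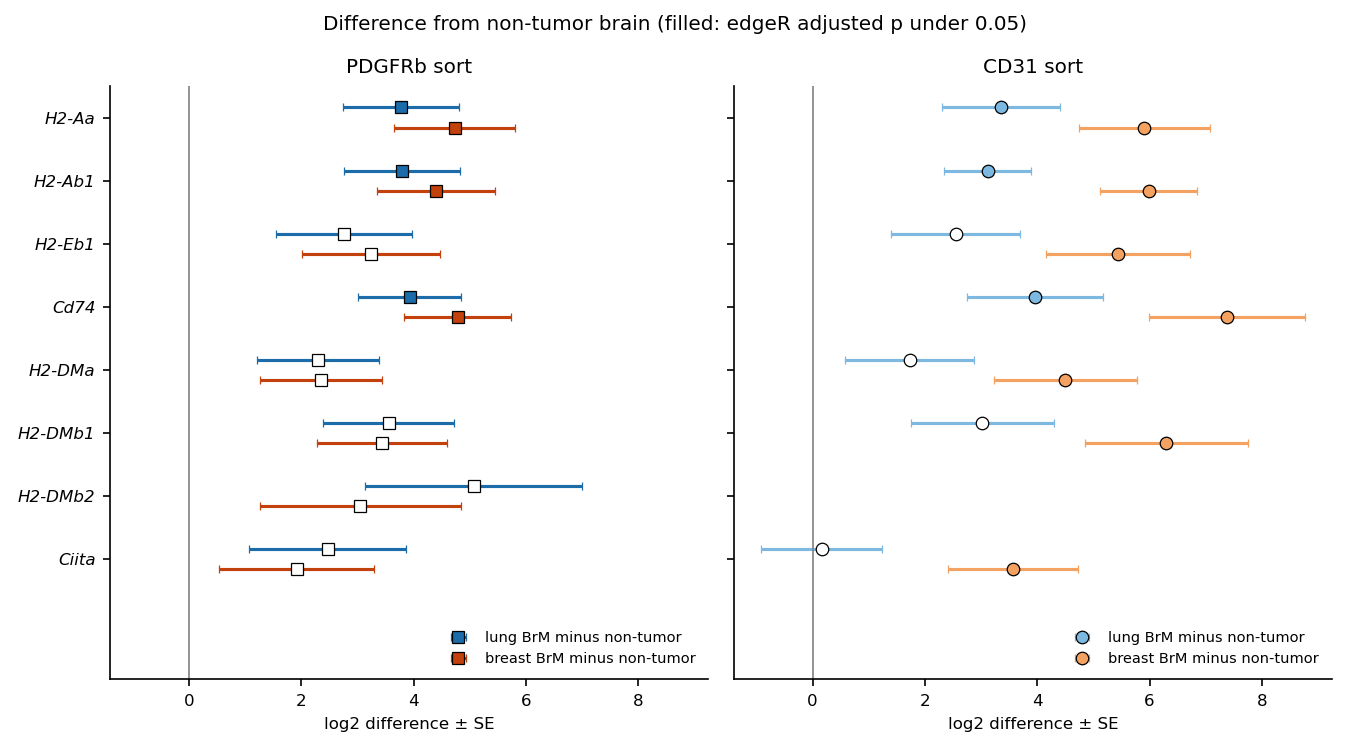
Log2 differences of each gene that was tested, BrM minus non-tumor brain, with bars of ±1 SE from edgeR, by sort and origin, and filled points for genes called at an adjusted p under 0.05. Breast BrM in the CD31 sort has 7 filled points, from 3.57 for Ciita to 7.37 for Cd74, and each other comparison has 3, the points of Cd74, H2-Aa and H2-Ab1.

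PDGFRb libraries held more Cd74 in both kinds of BrM than in non-tumor brain. It stood at 653.3, 49.5, 657.5 and 76.3 CPM in PDGFRb lung BrM labels 51435, 54957, 55169-70 and 56195-56520. In PDGFRb breast BrM it stood at 528.8, 263.7, 1230.3 and 549.0 CPM in mice 51950, 52599, 52865 and 53072. In PDGFRb non-tumor libraries it stood at 6.95, 44.8, 52.9, 4.2 and 10.3 CPM in mice 53680, 54132, 54135, 56727 and 56740. Breast BrM values did not overlap the non-tumor values, while the lung library of mouse 54957 lay just below the highest non-tumor one. These are bulk libraries, in which fewer cells of a type and less RNA per cell cannot be told apart.

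In PDGFRb breast BrM 3 of 8 members were higher than in non-tumor brain, against 6.3% of 17028 genes tested. Cd74 was higher by 4.78 ± 0.95 (log2 ± SE, edgeR adjusted p = 0.00771), H2-Aa by 4.73 ± 1.08 (adjusted p = 0.0157) and H2-Ab1 by 4.40 ± 1.05 (adjusted p = 0.0201). H2-Aa stood at 65.7, 80.5, 340.1 and 146.1 CPM in PDGFRb breast BrM and at 1.83, 7.61, 15.5, 0.309 and 5.17 CPM in PDGFRb non-tumor libraries, with no overlap. The median over the 8 members was 3.34 and over all genes -0.16. H2-Eb1 (3.24, adjusted p = 0.117), H2-DMb1 (3.44, adjusted p = 0.0802) and H2-DMa (2.35, adjusted p = 0.194) did not pass, nor did H2-DMb2 (3.05, adjusted p = 0.321) and Ciita (1.92, adjusted p = 0.433).

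The library of mouse 51950 weighed on these values. It had 0 counts of H2-Eb1, H2-DMa, H2-DMb1, H2-DMb2 and Ciita beside 528.8 CPM of Cd74, and it was the shallowest library. Without it, 6 members were called in PDGFRb breast BrM, adding H2-Eb1 (3.62, edgeR adjusted p = 0.0184), H2-DMa (2.74, adjusted p = 0.0126) and H2-DMb1 (3.83, adjusted p = 0.0044). Its removal also took the calls in PDGFRb lung BrM to 7, with H2-Eb1, H2-DMa, H2-DMb1 and H2-DMb2 added. All groups of the fit share 1 estimate of the spread. The share of all genes called without this library was not counted, so the gain may not be particular to the members. H2-Ab1 lost its call in PDGFRb breast BrM without breast mouse 52865 (3.61, adjusted p = 0.0567) or non-tumor mouse 53680 (0.0572), 56727 (0.057) or 56740 (0.0574). H2-Aa kept its call, at 4.03 without breast mouse 52865 and 5.40 without non-tumor mouse 54135.

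PDGFRb lung BrM also had 3 of 8 members higher than non-tumor brain, against 9.91% of genes tested, with a median of 3.66 over the members and -0.03 over all genes. Cd74 was higher by 3.93 ± 0.92 (log2 ± SE, edgeR adjusted p = 0.0103), H2-Ab1 by 3.80 ± 1.03 (adjusted p = 0.021) and H2-Aa by 3.77 ± 1.03 (adjusted p = 0.0225). H2-Ab1 stood at 169.5, 11.1, 298.3 and 31.0 CPM in PDGFRb lung BrM and at 5.12, 11.5, 19.2, 3.71 and 7.35 CPM in PDGFRb non-tumor libraries. The lung libraries fell into a high pair, 51435 and 55169-70, and a low pair that reached into the non-tumor range. By the column names, the low pair bears the date that lung BrM shares with non-tumor brain. The high pair bears dates without non-tumor libraries, so date and tumor cannot be told apart there. H2-DMb1 was the 1 member of 8 whose lung values all lay above the non-tumor values, as 18.9% of all genes tested did, at 21.5, 25.0, 44.6 and 19.8 CPM against 2.09, 0.206, 1.22, 4.33 and 4.37 CPM, and it missed the threshold (3.56, adjusted p = 0.0501). Ciita stood at 7.84, 0.753, 8.99 and 1.23 CPM in PDGFRb lung BrM and at 1.01, 0, 1.22, 0.972 and 1.11 CPM in PDGFRb non-tumor libraries (2.47, adjusted p = 0.265).

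The calls of both I-A chains in PDGFRb lung BrM rested on label 55169-70. Without it H2-Aa (2.86, edgeR adjusted p = 0.0947) and H2-Ab1 (2.86, adjusted p = 0.0901) did not pass. H2-Aa also missed without non-tumor mouse 53680 (adjusted p = 0.0574) or 56740 (0.056), and H2-Ab1 without 53680 (0.0563), 56727 (0.0543) or 56740 (0.0541). Cd74 passed in all 13 fits that left out 1 PDGFRb library, in both BrM origins. The 3 calls of each PDGFRb comparison were lost with the date as a covariate, where Cd74 stood at 4.9 in breast BrM (adjusted p = 0.0675) and at 3.2 in lung BrM (adjusted p = 0.103). Few genes passed in that fit, 89 of 17028 called higher in breast BrM and 273 in lung BrM.

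Within dates the PDGFRb values had the same order. On the earlier date that breast BrM shares with non-tumor brain, Cd74 averaged 538.9 CPM in PDGFRb breast BrM and 6.95 CPM in the PDGFRb non-tumor library, and on the later one it averaged 747.0 CPM in breast BrM and 52.9 CPM in non-tumor. On the date that lung BrM shares with non-tumor brain it averaged 62.9 CPM in PDGFRb lung BrM and 7.25 CPM in PDGFRb non-tumor, and in the CD31 sort 41.1 CPM in lung BrM and 2.41 CPM in non-tumor. All 8 members were higher in PDGFRb breast BrM on both dates, and 7 of 8 in PDGFRb lung BrM (not Ciita) and in CD31 lung BrM (not H2-DMb2). The CD31 lung BrM means come from mouse 54957 (82.3 CPM of Cd74) and label 56195-56520, at 0 CPM for 6 of the 8 members, Cd74 among them. Some differences were small. In PDGFRb lung BrM H2-Eb1 averaged 8.27 CPM against 7.15 CPM and H2-DMa 4.78 CPM against 4.09 CPM. In CD31 lung BrM Ciita averaged 1.11 CPM against 1.06 CPM. The share of all genes with this order was not counted.

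PDGFRb lung BrM and PDGFRb breast BrM were not separated by any member. By edgeR 0 of 8 passed (adjusted p 0.607 to 0.99), where 5.47% of all genes tested were called in either direction, none had an unadjusted p under 0.05, and DESeq2 and limma-voom also called 0. Of all genes, DESeq2 called 1096 higher and 1218 lower of 16483, and limma-voom 1001 higher and 596 lower of 17028. The median difference was -0.26 over the members and 0.07 over all genes. Cd74 averaged 359 ± 342 CPM in PDGFRb lung BrM and 643 ± 413 CPM in PDGFRb breast BrM (SD, n = 4 each), a difference of -0.85 ± 0.90.

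Sorts of the same brains were compared in a fit of all 28 libraries. In lung BrM 2 of 8 members were higher in PDGFRb than in CD31 libraries, against 10.2% of 18548 genes tested. H2-Eb1 stood at 114.1, 4.89, 141.5 and 11.7 CPM in PDGFRb lung BrM and at 16.8, 1.1, 8.37, 0.848 and 0 CPM in CD31 lung BrM, a difference of 3.65 ± 1.28 (log2 ± SE, edgeR adjusted p = 0.0453). H2-Ab1 differed by 2.98 ± 0.93 (adjusted p = 0.024). With the mouse as a block neither passed, H2-Eb1 at 4.35 (adjusted p = 0.178) and H2-Ab1 at 2.44 (adjusted p = 0.161). H2-Eb1 passed in 8 and H2-Ab1 in 24 of the 28 fits that left out 1 library. H2-Ab1 was lost without CD31 lung label 51697 (adjusted p = 0.0501), 55169-70 (0.055) or 56195-56520 (0.0585) or without PDGFRb lung label 55169-70 (0.128), and the H2-Eb1 difference was 4.72 without CD31 lung mouse 51435.

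In non-tumor brain 2 of 8 members were higher in PDGFRb than in CD31 libraries, against 17.4% of genes tested. H2-Eb1 stood at 6.07, 17.6, 13.1, 7.07 and 7.24 CPM in PDGFRb non-tumor libraries and at 0.377, 1.37, 1.31, 1.4 and 0.358 CPM in CD31 non-tumor libraries. The values did not overlap, all 5 mice had the higher value in the PDGFRb sort, and the difference was 3.41 ± 1.27 (log2 ± SE, edgeR adjusted p = 0.0449). Cd74 differed by 3.03 ± 1.12 (adjusted p = 0.0435) and was also higher in the PDGFRb sort in 5 of 5 mice. Both calls were lost with the mouse as a block, at 3.51 for H2-Eb1 (adjusted p = 0.0671) and 2.50 for Cd74 (adjusted p = 0.173). Without both libraries of mouse 54135, whose labels conflict, H2-Eb1 stood at 3.39 (adjusted p = 0.109) and Cd74 at 2.72 (adjusted p = 0.138). Leaving out single libraries kept the H2-Eb1 call in 19 and the Cd74 call in 20 of 28 fits, and each of the 5 CD31 non-tumor mice, left out alone, ended both, as did PDGFRb non-tumor mice 54132 and 54135. Further losses came without PDGFRb breast BrM mouse 51950 (Cd74, adjusted p = 0.0515), PDGFRb breast BrM mouse 53072 (H2-Eb1, 0.0511) and PDGFRb non-tumor mouse 56740 (H2-Eb1, 0.053).

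In breast BrM the sorts were not separated. By edgeR 0 of 8 members passed, where 16.5% of all genes were called in either direction, none had an unadjusted p under 0.05, DESeq2 called 0 and limma-voom 1, H2-Aa (2.65, adjusted p = 0.0442). Of all genes, DESeq2 called 2203 higher and 1822 lower of 18367, and limma-voom 1361 higher and 2314 lower of 18548. Cd74 differed by 0.44 ± 1.08 between PDGFRb and CD31 breast BrM and was higher in the PDGFRb sort in 2 of 4 mice. Mice 51950 and 52865 had 528.8 and 1230.3 CPM in the PDGFRb sort and 16.6 and 18.4 CPM in the CD31 sort. Mice 52599 and 53072 had 263.7 and 549.0 CPM in the PDGFRb sort and 360.5 and 894.0 CPM in the CD31 sort. Ciita was higher in the PDGFRb sort in 1 of these 4 mice.

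**Figure D3:**
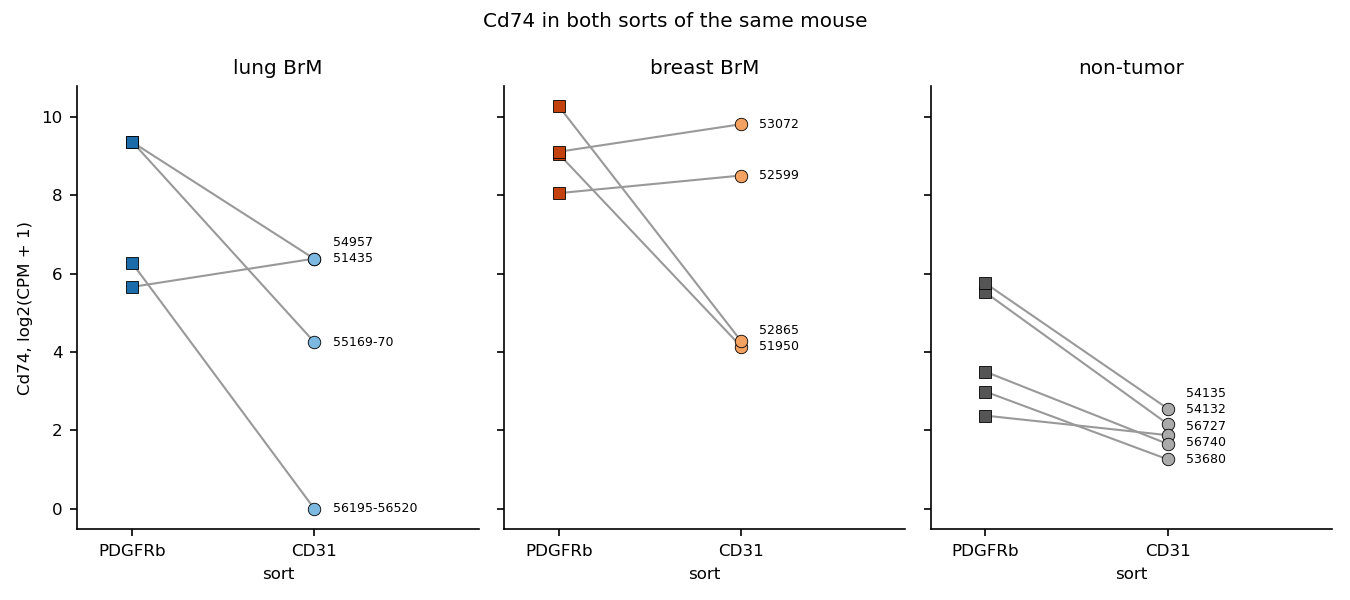
Cd74 as log2(CPM + 1) in the PDGFRb and CD31 libraries of the same mouse label, joined by a line, with 1 panel each for lung BrM, breast BrM and non-tumor brain. The PDGFRb value is the higher one in 3 of 4 lung BrM labels, 2 of 4 breast BrM mice and 5 of 5 non-tumor mice.

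The order of the members within a group was read from the deposited FPKM values, which account for gene length. Cd74 came first in all 6 groups, with 386.5 ± 368.5 FPKM in PDGFRb lung BrM, 654.9 ± 462.4 in PDGFRb breast BrM and 29.5 ± 29.5 in PDGFRb non-tumor libraries. Its CD31 levels were 46.4 ± 40.0 FPKM for lung BrM, 505.0 ± 536.0 for breast BrM and 2.95 ± 1.25 for non-tumor libraries (SD). H2-Ab1 came next except in PDGFRb non-tumor libraries, where H2-Eb1 (17.1 ± 8.03 FPKM) did, and Ciita or H2-DMb2 came last. Of the 42 pairs of neighbours in the 6 orders, 38 differed in their means by less than the larger SD of the pair.

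The summed CPM of the 8 members shows how far single mice of a group differed. The sum ran from 105.3 to 1391.6 CPM in PDGFRb lung BrM, from 556.3 to 2294.2 CPM in PDGFRb breast BrM and from 24.4 to 109.4 CPM in PDGFRb non-tumor libraries. It ran from 4.97 to 154.7 CPM in CD31 lung BrM, from 41.1 to 1709.5 CPM in CD31 breast BrM and from 7.77 to 10.4 CPM in CD31 non-tumor libraries. The highest CD31 breast BrM library was thus 41.6 times the lowest, while the CD31 non-tumor libraries stayed within 1.34 times. By the deposited FPKM values, Cd74 was the highest of the 8 in 23 of the 28 libraries.

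**Figure D4:**
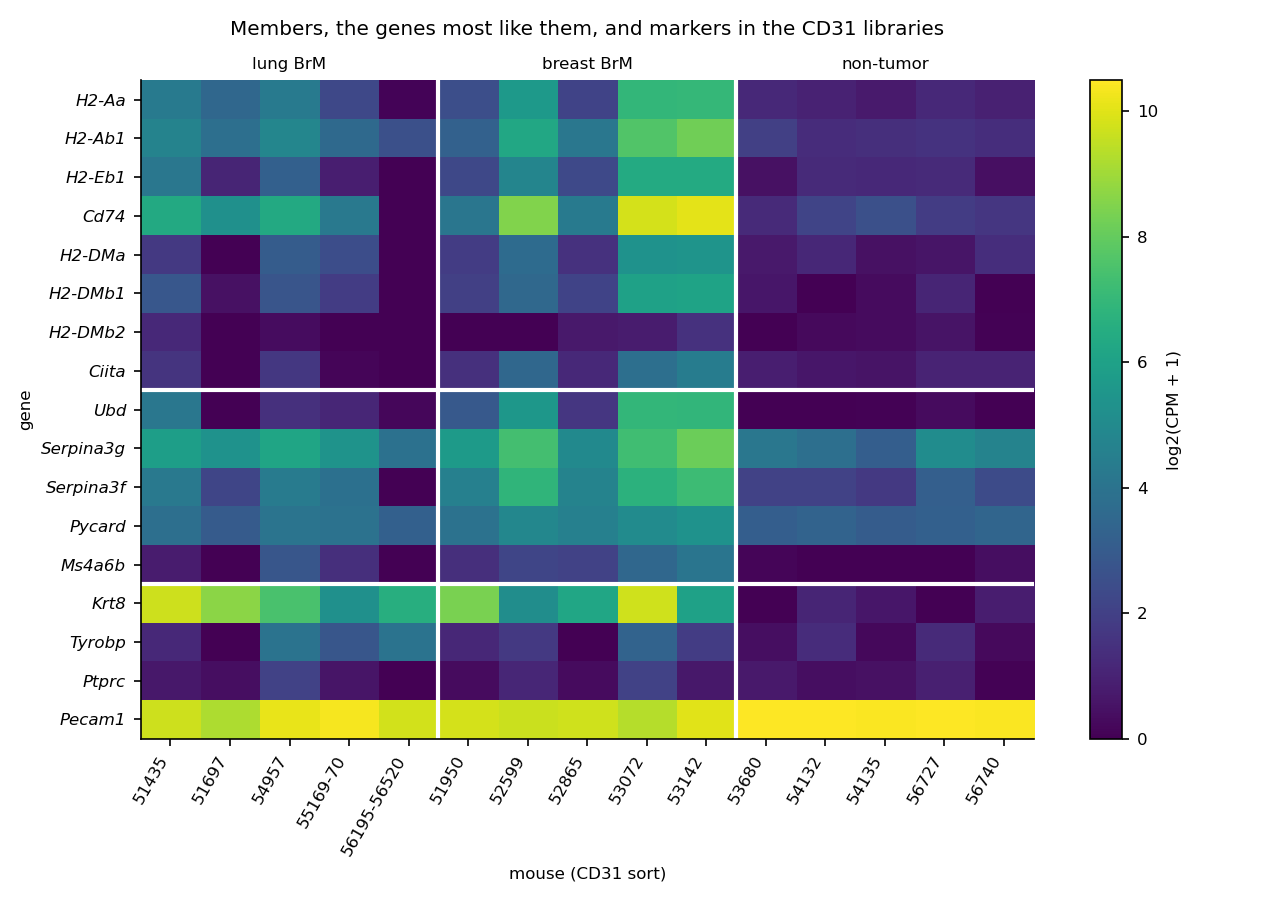
Levels as log2(CPM + 1), by colour, in the 15 CD31 libraries, 1 column per mouse label and 1 row per gene: the 8 members, then the 5 genes whose levels were most like theirs in this sort (Ubd to Ms4a6b), then Krt8, Tyrobp, Ptprc and Pecam1 as markers of cancer cells, myeloid cells, leukocytes and endothelium. Breast BrM mice 52599, 53072 and 53142 stand out across the member rows other than H2-DMb2, from Cd74 (360.5 to 1074.0 CPM) to Ciita (10.5 to 20.0 CPM), and mice 51950 and 52865 do not.

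Leukocytes are a source of class II RNA that the CD45 and CD11B gates should remove. Over 20 pan-leukocyte and myeloid markers, the summed level ran from 65.0 to 712.8 CPM in PDGFRb lung BrM, from 156.5 to 1490.1 CPM in PDGFRb breast BrM and from 20.1 to 123.2 CPM in PDGFRb non-tumor libraries. It ran from 33.9 to 736.6 CPM in CD31 lung BrM, from 11.0 to 149.1 CPM in CD31 breast BrM and from 20.0 to 37.1 CPM in CD31 non-tumor libraries. The sums of CD31 breast BrM and CD31 non-tumor libraries thus overlapped, while all PDGFRb breast BrM libraries lay above all PDGFRb non-tumor libraries. The CD31 non-tumor sum was led by 1 gene, Laptm5, at a mean of 19.6 CPM there and 10.9 CPM in CD31 breast BrM. Of the 20 markers, 13 had a mean above 1 CPM in CD31 breast BrM and 2 in CD31 non-tumor libraries, where Adgre1 and Aif1 were at 0.

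Leukocyte genes differed in level in CD31 breast BrM. Ptprc, which encodes CD45, stood at 0.229 to 3.21 CPM, Itgam, which encodes CD11B, at 0 to 0.659 CPM, and Tyrobp, an adaptor of myeloid receptors, at 0 to 8.98 CPM. Their means in CD31 breast BrM and CD31 non-tumor libraries were 1.1 and 0.456 CPM for Ptprc, 0.248 and 0.198 CPM for Itgam and 3.05 and 0.73 CPM for Tyrobp. Of the list, only Laptm5 and Cd163 had lower means in CD31 breast BrM. Lyz2, the lysozyme of myeloid cells, averaged 11.6 CPM in CD31 breast BrM (at most 37.3 CPM) and 3.93 CPM in CD31 non-tumor libraries. The complement gene C1qb averaged 7.83 CPM in CD31 breast BrM (at most 24.7 CPM) and 0.34 CPM in CD31 non-tumor libraries. For each unit of Tyrobp CPM there were 13.6, 155, 99.5 and 398.6 units of Cd74 CPM in mice 51950, 52599, 53072 and 53142, and mouse 52865 had no Tyrobp counts. The ratio was 6.31 to 46.9 in PDGFRb lung BrM, 7.75 to 21.1 in the 3 PDGFRb breast BrM libraries with Tyrobp counts and 0.565 to 73.4 in PDGFRb non-tumor libraries. It was 0 to 63.9 in the 4 CD31 lung BrM libraries with Tyrobp counts and 1.92 to 28.7 in CD31 non-tumor libraries. Against the summed myeloid list, Cd74 was 0.441, 9.39, 1.68, 6.0 and 22.5 times as high in CD31 breast BrM mice 51950, 52599, 52865, 53072 and 53142, 0 to 2.41 times in CD31 lung BrM and 0.07 to 0.146 times in CD31 non-tumor libraries. In the PDGFRb sort it was 0.761 to 1.88 times as high in lung BrM, 0.826 to 1.88 times in breast BrM and 0.0792 to 2.63 times in non-tumor libraries. The part of myeloid RNA in the Cd74 difference was not tested.

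In PDGFRb libraries of BrM, the libraries highest in Cd74 were also high in Tyrobp, with 1 exception. Tyrobp stood at 13.9, 2.94, 104.1 and 2.58 CPM in PDGFRb lung BrM labels 51435, 54957, 55169-70 and 56195-56520, the same high and low pairs as Cd74. In PDGFRb breast BrM it stood at 0, 18.0, 158.8 and 26.0 CPM, highest in mouse 52865, which also had the most Cd74 and 24.2 CPM of Itgax, a dendritic cell and macrophage gene. Mouse 51950 was the exception, with no Tyrobp counts beside 528.8 CPM of Cd74. Among PDGFRb non-tumor libraries mouse 54135 had the lowest summed myeloid level (20.1 CPM) and the most Cd74 (52.9 CPM), while mouse 56740 had the highest sum (123.2 CPM) and 10.3 CPM of Cd74. Without the PDGFRb libraries whose Ptprc passed 5 CPM, lung label 55169-70 (15.3 CPM) and breast mouse 53072 (7.56 CPM), Cd74 stood at 3.40 in lung BrM (edgeR adjusted p = 0.0512) and 4.77 in breast BrM (adjusted p = 0.0264). No member passed in PDGFRb lung BrM and 3 in PDGFRb breast BrM in that fit. Of the 17664 genes it tested, 1030 were called higher in lung BrM and 546 in breast BrM. The part of leukocyte RNA in these differences was not tested.

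Markers of other antigen-presenting cells were also summed. Summed over 5 genes, B cell markers stood at 0 to 0.769 CPM in PDGFRb lung BrM, 0 to 1.72 CPM in PDGFRb breast BrM and 0 to 20.8 CPM in PDGFRb non-tumor libraries. In the CD31 sort they stood at 0 to 10.8 CPM for lung BrM, 0.7 to 1.88 CPM for breast BrM and 0.861 to 2.3 CPM for non-tumor libraries. PDGFRb mouse 54135, the non-tumor library with the most Cd74 in that sort, was the one at 20.8 CPM. The list of 9 dendritic markers was led in CD31 libraries by Zbtb46, which endothelial cells also express, at a mean of 52.7 CPM in CD31 breast BrM and 117.1 CPM in CD31 non-tumor libraries. Other genes of this list had higher means in CD31 breast BrM than in CD31 non-tumor libraries: Clec9a, a receptor of dendritic cells (16.3 CPM against 3.84 CPM), Batf3, a factor of that lineage (1.55 CPM against 0.0249 CPM), Flt3 (0.575 CPM against 0.0561 CPM) and Itgax (0.374 CPM against 0.0679 CPM). Clec9a did not follow the others across sorts. In PDGFRb breast BrM it averaged 0.0532 CPM, where Itgax averaged 8.34 CPM and Batf3 3.5 CPM. The summed dendritic list ran from 55.1 to 95.0 CPM in CD31 breast BrM and from 81.9 to 191.1 CPM in CD31 non-tumor libraries, and the part of dendritic cell RNA in the class II differences was not tested. Summed T and NK cell markers (6 genes) reached 44.2 CPM in PDGFRb breast BrM and no more than 4.61 CPM in CD31 breast BrM.

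Cancer cell RNA was followed with Krt8, a keratin of epithelial cells. It stood at 2493.9, 3264.4, 2707.9 and 4032.9 CPM in PDGFRb lung BrM labels 51435, 54957, 55169-70 and 56195-56520 and at 417.7, 577.9, 532.6 and 1197.3 CPM in PDGFRb breast BrM mice 51950, 52599, 52865 and 53072, against 0.884 to 8.59 CPM in PDGFRb non-tumor libraries. In the CD31 sort it stood at 824.7, 403.5, 176.9, 37.9 and 95.2 CPM in lung BrM labels 51435, 51697, 54957, 55169-70 and 56195-56520. CD31 breast BrM mice 51950, 52599, 52865, 53072 and 53142 had 331.9, 34.6, 73.7, 856.7 and 62.5 CPM of Krt8, against 0 to 1.12 CPM in CD31 non-tumor libraries. All BrM groups thus held keratin RNA that non-tumor libraries lacked, and PDGFRb lung BrM held the most. Over the 15 epithelial markers the sums were 6498.5 to 10710.8 CPM in PDGFRb lung BrM, 1364.6 to 4822.9 CPM in PDGFRb breast BrM and 25.9 to 124.9 CPM in PDGFRb non-tumor libraries. They were 131.8 to 2362.4 CPM in CD31 lung BrM, 185.8 to 3478.6 CPM in CD31 breast BrM and 3.01 to 16.5 CPM in CD31 non-tumor libraries.

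Among the CD31 breast BrM mice the most Cd74 (1074.0 CPM, mouse 53142) did not stand beside the most Krt8 (856.7 CPM, mouse 53072). Mouse 53072 still had more Cd74 (894.0 CPM) than any of these mice but 53142. Per unit of Krt8 there were 0.0501, 10.4, 0.25, 1.04 and 17.2 units of Cd74 in mice 51950, 52599, 52865, 53072 and 53142, and mice 52599 and 53142, with the highest ratios, had the lowest Krt8 of the 5. The ratio was 0.0152 to 0.262 in PDGFRb lung BrM, 0.456 to 2.31 in PDGFRb breast BrM and 0 to 0.474 in CD31 lung BrM. Leaving out BrM libraries with more than 100 CPM of Krt8 kept CD31 breast BrM mice 52599, 52865 and 53142. There Cd74 stood at 7.38 (log2, edgeR adjusted p = 0.00165) and H2-Ab1 at 6.07 (adjusted p = 1.64e-04), and 7 of the 8 members tested in that fit were called, all but H2-DMb2 (2.09, adjusted p = 0.286). The 2 CD31 lung BrM labels so kept gave 1.66 for Cd74 (adjusted p = 0.348) and 2.09 for H2-Ab1 (adjusted p = 0.0587), with H2-Eb1 at -1.11 and Ciita at -3.58, and 0 calls. Of the 15953 genes tested in this fit, 2872 were called higher in CD31 breast BrM and 2517 in CD31 lung BrM. Every PDGFRb BrM library was above 100 CPM, so no such value could be had there.

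**Figure D5:**
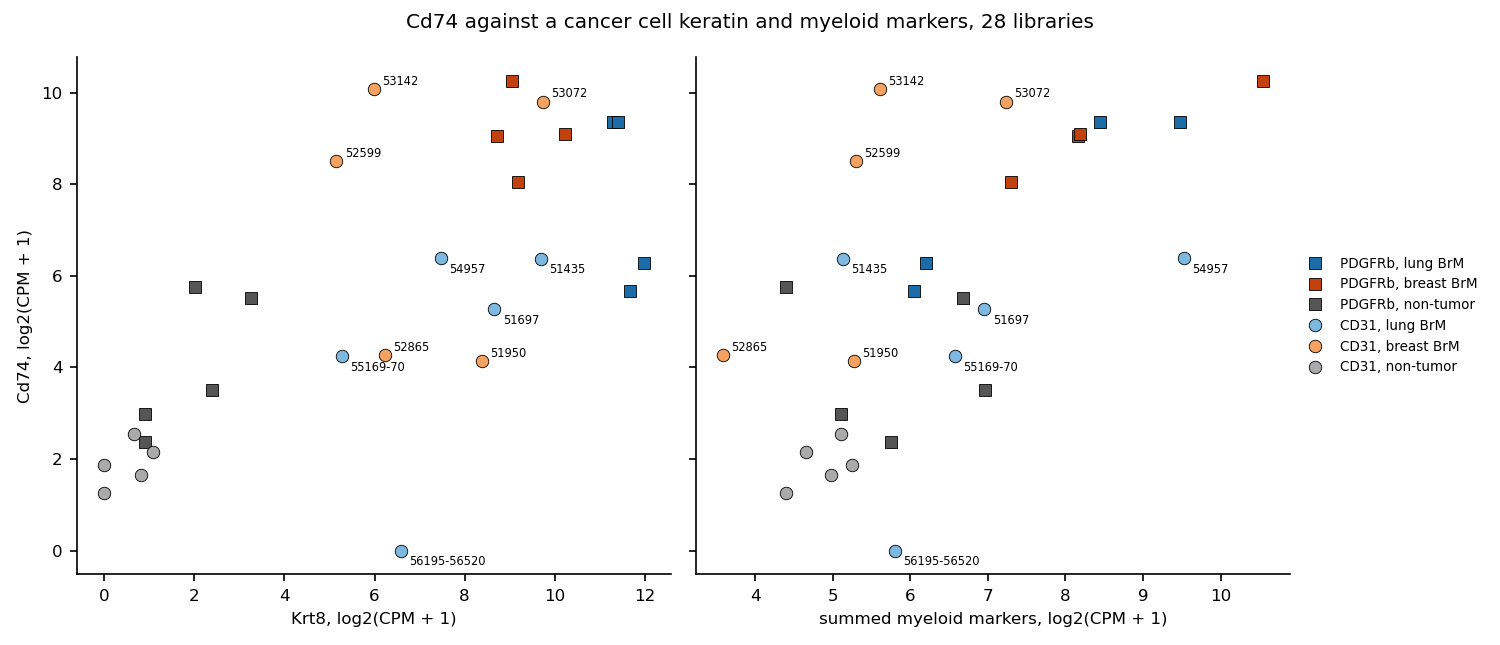
Cd74 against Krt8 and against the summed myeloid list in each library, both as log2(CPM + 1), with groups by colour, sorts by symbol (squares for PDGFRb, circles for CD31) and BrM libraries of the CD31 sort labelled by mouse. CD31 breast BrM mice 52599 and 53142 combine 360.5 and 1074.0 CPM of Cd74 with 34.6 and 62.5 CPM of Krt8, and mouse 51950 has 16.6 CPM of Cd74 with 331.9 CPM of Krt8. Mouse 53072 is high in both, with 894.0 CPM of Cd74 and 856.7 CPM of Krt8.

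The same mouse's PDGFRb library gave a scale for the Cd74 that keratin RNA would carry. The Cd74 per Krt8 of the PDGFRb library, all of which was counted as cancer RNA although part is from other cells, was multiplied by the Krt8 of the CD31 library. The result was 4.38% of the Cd74 found in CD31 breast BrM mouse 52599, 43.9% in mouse 53072, 2528.2% in mouse 51950 and 923.3% in mouse 52865. Scaling by the epithelial sum gave 6.11%, 44.3%, 3189.3% and 926.3% in the same order, and scaling by Epcam 14.1%, 88.0%, 2735.9% and 1118.6%. In CD31 lung BrM labels 51435, 54957 and 55169-70 the share was 264.1%, 3.26% and 51.2% by Krt8, and 290.3%, 4.09% and 55.6% by the epithelial sum. By Epcam it was 114.7%, 314.5% and 0.0% in these labels, so the lung values depend on the gene used as the scale. Mouse 53142 had no PDGFRb library. The part of cancer cell RNA in the Cd74 differences was not tested.

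Other genes of the pathway were counted by list, to be read beside the shares of all genes tested that were called against non-tumor brain. These were 9.91% higher and 7.58% lower in PDGFRb lung BrM, 6.3% higher and 2.69% lower in PDGFRb breast BrM, 20.4% higher and 14.5% lower in CD31 lung BrM and 18.6% higher and 11.4% lower in CD31 breast BrM. Of 7 factors of the class II promoter (Rfx5, Rfxap, Rfxank, Nfya, Nfyb, Nfyc and Creb1), none was higher in any BrM group than in non-tumor brain. Rfxank, a subunit of RFX, was lower in CD31 breast BrM (25.7 CPM against 44.9 CPM in non-tumor, -0.77, edgeR adjusted p = 0.0438). Creb1 was lower in CD31 lung BrM (36.1 CPM against 92.8 CPM, -1.31, adjusted p = 0.0106). Of 5 other class II genes, H2-Oa, H2-Ob, H2-Eb2, H2-Ea and H2-Ea-ps, 1 was tested in the CD31 fit and 2 in the PDGFRb fit, and none was called against non-tumor brain. H2-Ob, a chain of the H2-DM inhibitor H2-O, averaged 3.43 CPM in CD31 breast BrM and 2.65 CPM in CD31 non-tumor libraries.

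Upstream of Ciita, the interferon-gamma list of 9 genes had 8 tested, with 1 higher in PDGFRb lung BrM, 3 higher in PDGFRb breast BrM, 2 higher and 3 lower in CD31 lung BrM and 2 higher in CD31 breast BrM. The higher counts of both lung BrM comparisons and of CD31 breast BrM are near the shares of all genes. Ifngr2, a chain of the interferon-gamma receptor, was higher in all 4 comparisons, by 2.12 in PDGFRb lung BrM (edgeR adjusted p = 1.26e-04), 2.00 in PDGFRb breast BrM (5.14e-04), 1.84 in CD31 lung BrM (7.31e-08) and 1.79 in CD31 breast BrM (9.99e-08). Irf1, a transcription factor induced by interferon-gamma, was higher in PDGFRb breast BrM (1.75, edgeR adjusted p = 0.0123) and lower in CD31 lung BrM (-0.95, adjusted p = 0.00794) than in non-tumor brain. Ifng itself did not pass the filter in either sort.

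Lysosomal processing genes (10 listed, all tested) were called in both directions. Against non-tumor brain 1 was higher and 1 lower in PDGFRb lung BrM, 4 and 1 in PDGFRb breast BrM, 6 and 3 in CD31 lung BrM and 4 and 3 in CD31 breast BrM. The 1 higher and 1 lower gene of PDGFRb lung BrM are near the shares of all genes. Ifi30, the lysosomal thiol reductase, was higher by 5.16 in CD31 lung BrM and by 5.22 in CD31 breast BrM (edgeR adjusted p = 6.54e-04 and 6.55e-04), at means of 5.70 and 5.99 CPM against 0.159 CPM in CD31 non-tumor libraries. Ctss, the protease that cuts the invariant chain in antigen-presenting cells, was higher by 5.20 in PDGFRb breast BrM, 4.25 in CD31 lung BrM and 4.94 in CD31 breast BrM. Lgmn, a lysosomal endopeptidase, was higher by 3.25 in CD31 lung BrM and 2.42 in CD31 breast BrM. Ctsh, another cathepsin, was higher in PDGFRb lung BrM (1.68) and PDGFRb breast BrM (1.88) but lower in CD31 lung BrM (-1.20) and CD31 breast BrM (-1.58). Cst3, a cathepsin inhibitor, was lower in PDGFRb lung BrM (-1.74), PDGFRb breast BrM (-1.84), CD31 lung BrM (-0.68) and CD31 breast BrM (-1.0).

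Of 6 ligands and partners of CD74, 2 were higher and 1 lower in each PDGFRb comparison with non-tumor brain (6 tested), and 3 were higher and 1 lower in each CD31 comparison (5 tested). Cd44, the signalling partner of CD74, was higher by 5.31 in PDGFRb lung BrM, 3.89 in PDGFRb breast BrM, 6.55 in CD31 lung BrM and 6.91 in CD31 breast BrM. Mif, its ligand, was higher by 1.23, 1.68, 1.18 and 1.55 in the same comparisons. Cxcr4, a receptor that can join CD74, was called in the CD31 sort, by 6.77 in lung BrM and 7.23 in breast BrM, at means of 19.9 and 27.9 CPM against 0.184 CPM in non-tumor. Ackr3, a scavenging chemokine receptor, was lower in all 4, by -2.46, -2.66, -1.01 and -1.21 in the same order.

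Costimulation genes, which a T cell needs beside class II, were mostly too low to test in the CD31 sort. Of 6 listed, 2 were tested in the CD31 fit (Cd40 and Icosl) and neither was called against non-tumor brain. In the PDGFRb fit 6 were tested and 1 was called against non-tumor brain, in both BrM origins, Tnfsf4 (OX40 ligand), at 4.49 ± 2.78 CPM in PDGFRb lung BrM and 0.488 ± 0.372 CPM in PDGFRb breast BrM (SD), with 0 counts in the 5 PDGFRb non-tumor libraries. Against 3 counts in each of those libraries (a mean of 0.146 CPM) these were at least 30.7-fold and 3.33-fold higher. Neither ubiquitin ligase that removes class II from the surface, Marchf1 or Marchf8, was called where tested.

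Which genes followed the members most closely was read from Pearson's r with their mean log2(CPM + 1), as a description over libraries that share sort, mouse and depth. Over all 28 libraries and 14807 genes ranked, the nearest were Ctss (0.858), Mpeg1 (0.858), Aif1 (0.843), Syne4 (0.839) and Il1rn (0.835), and Mpeg1 and Aif1 are macrophage genes. Of markers of leukocytes, C1qa had 0.826 (rank 8), Itgax 0.724 (rank 96), Tyrobp 0.637 (rank 380) and Ptprc 0.626 (rank 428). Of epithelial markers, Epcam had 0.73 (rank 84) and Krt8 0.659 (rank 295). Over the 15 CD31 libraries the nearest were Ubd (0.954), Serpina3g (0.934), Serpina3f (0.926), Pycard (0.915) and Ms4a6b (0.911). Ubd, a ubiquitin-like protein inducible by interferon-gamma, stood at 16.8, 0, 1.72, 1.19 and 0.124 CPM in CD31 lung BrM, 6.54, 45.6, 2.12, 122.1 and 120.0 CPM in CD31 breast BrM and 0 to 0.233 CPM in CD31 non-tumor libraries. The 3 breast BrM mice high in Ubd, 52599, 53072 and 53142, were those high in the class II genes. Ubd was picked for its likeness to the members in these same libraries, so this is no separate result. Over the CD31 libraries the leukocyte markers had 0.72 (C1qa, rank 302), 0.641 (Itgax, rank 797), 0.631 (Ptprc, rank 882) and 0.323 (Tyrobp, rank 4275), and the epithelial markers 0.77 (Epcam, rank 128) and 0.568 (Krt8, rank 1443). Ctss had 0.8 (rank 67).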

How the data were processed

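Per the labels, cDNA came from a SMART-Seq kit for low input and was tagged with Nextera XT, so reads carry no strand or molecular barcodes, antisense reads cannot be told apart, and limits from counts cover counting error only. Named in the submitters' processing notes, with no order, are mm10, limma 3.50.3, edgeR 3.36.0, RSEM 1.3.3 and STAR 2.7.9a. The expected counts deposited by the authors are estimated reads per gene ID without scaling. Deposited FPKM are scaled by gene length and library size, and the log2 values deposited by the authors are log2 normalized counts, with a filter not given in the sources used here. No column lacked a sample. Of 53647 IDs 52093 matched a symbol, and rows without one held 0.182% to 1.57% of counts.

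Groups were read from titles, with the mouse label as replicate. P-values measure the spread between mouse labels. The closest 2 replicates had a chi-square per degree of freedom of 16.4, where counting error alone gives 1. Expected counts were rounded, filtered with filterByExpr and scaled by TMM, and tested with edgeR 4.0.16 (R 4.3.3, quasi-likelihood, robust), each sort alone with 3 groups and the sorts together with 6. P-values were adjusted by Benjamini-Hochberg over all genes tested and called under 0.05. The test was checked on simulated data. CPM use TMM-scaled totals, and 7.11 to 23.9 M counts (M, mega) stand behind each library.

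The sorts are paired by animal: 13 mouse labels have both. The correlation of deviations between partners was -0.12 to 0.33 (median 0.01), above 0.1 in 3 pairs. Alternatives were other scalings and filters, DESeq2 1.42.0, limma-voom (limma 3.58.1), limma on the deposited log2 and FPKM values, a date covariate, the mouse as a block and leaving out libraries. Named genes are the 8 members, the 5 genes most like them in each set of libraries (gene models, pseudogenes and receptor segments left out), up to 4 called genes with the largest change per pathway list, and marker genes; some called genes of a list are counted but not reported here by name. Members, lists and tests were chosen with earlier results of these data known.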

Additional observations from a re-analysis of the deposited data

Results flagged for a closer look

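Of 48 combinations of gene and group, 3 had a single library far from the rest, where chance gives about 1 in 20. H2-DMb2 stood at 0.946 CPM in the PDGFRb non-tumor library of mouse 54135 and at 0 in the other 4, and this library also had the highest B cell marker sum of its group (20.8 CPM). H2-DMb2 stood at 1.28 CPM in the CD31 lung BrM library of mouse 51435, with 0.286 CPM as the next value. Ciita was at 0 in the PDGFRb non-tumor library of mouse 54132, where the other 4 had at least 0.972 CPM. 3 counts equal 0.119 to 0.498 CPM, so these values rest on few reads.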

How the results depend on the processing

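No called difference changed sign. Of 69 gene and comparison values, 1186 of 1299 fits without 1 library and 752 of 902 other alternatives kept direction and side of the threshold. The sign changed in 25 and 31 of them, all for differences that had not been called, of which some are given here. Ciita in CD31 lung BrM ran from -3.58 to 0.87, H2-Eb1 there from -1.11 to 3.26 and H2-DMa there from -0.3 to 2.05. Between sorts in non-tumor brain H2-Aa ran from -0.37 to 3.04 and H2-DMb2 from -4.73 to 0.7. Between sorts in breast BrM Cd74 ran from -0.13 to 2.43, and between PDGFRb lung and breast BrM H2-DMb1 ran from -1.58 to 2.02. In each case below the cause was not tested. Of the 7 calls in CD31 breast BrM against non-tumor brain, limma-voom and the date covariate left 1 each and mouse 54135 grouped by its cell type label left 3. Of all genes, limma-voom called 2641 of 14876 higher there, the date covariate 1353 of 14876 and that regrouping 1477 of 15017. Of the 3 calls in CD31 lung BrM, 0 remained by count under limma-voom, the date covariate, that regrouping and without libraries above 100 CPM of Krt8, 1 without the filter, on the deposited log2 values and on both FPKM scales, and 5 were made without lung labels of 2 mice. Of all genes, these fits called 2511 of 14876, 972 of 14876, 1809 of 15017 and 2517 of 15953 higher in the first 4. Without the filter 2781 of 31681 were called higher, and on the deposited log2 values 2307 of 18665. On the FPKM scales it was 2366 and 2430 of 18665, and without labels of 2 mice 3509 of 15909. DESeq2 called 2 members between CD31 lung and breast BrM, 5 in each PDGFRb comparison with non-tumor, 5 between sorts in non-tumor brain and 6 in lung BrM. Of all genes, it called 557 of 14785 lower in CD31 lung than in CD31 breast BrM. Against non-tumor brain it called 1549 of 16483 higher in PDGFRb breast BrM and 2044 in PDGFRb lung BrM. Between sorts it called 3871 of 18367 higher in PDGFRb libraries in non-tumor brain and 2436 in lung BrM. In PDGFRb breast BrM limma-voom called 1 member and the date covariate 0, beside 1071 and 89 of all 17028 genes called higher. In PDGFRb lung BrM both FPKM scales and the fit without labels of 2 mice called 1, and the date covariate and the fit without libraries above 5 CPM of Ptprc 0. Of all genes, the FPKM scales called 1725 and 1549 of 18665 higher there, and the fit without labels of 2 mice 632 of 19086. The date covariate called 273 of 17028 and the fit without Ptprc libraries 1030 of 17664.

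With the mouse as a replicate block, 0 of 2 members were called between sorts in non-tumor brain and 0 of 2 in lung BrM, beside 2305 and 759 of all 18548 genes called higher in PDGFRb libraries. Without the filter, without the Ptprc libraries and under the regrouping both counts were also 0. Under the regrouping 0 of all 18548 genes were called between sorts in non-tumor brain, so that 0 says nothing about the members. Without the filter 3249 of 35418 genes were called higher in PDGFRb libraries in non-tumor brain and 1343 in lung BrM. Without the Ptprc libraries these were 3286 and 1519 of 19183. Without mouse 54135, 0 members were called in non-tumor brain and 1 in lung BrM, where 2381 and 1582 of all 18227 genes were higher in PDGFRb libraries. Without labels of 2 mice, 4 and 0 members were called, beside 3709 and 483 of all 20304 genes. In limma-voom 0 members were called in non-tumor brain and 1 in breast BrM. Of all 18548 genes, limma-voom called 3213 and 1361 higher in PDGFRb libraries there. Without 1 library, the counts of called members ranged from 6 to 7 (CD31 breast), 3 to 5 (CD31 lung), 0 to 1 (CD31 lung against breast), 2 to 6 (PDGFRb breast), 1 to 7 (PDGFRb lung), 0 to 4 (sorts, non-tumor) and 0 to 5 (sorts, lung). The shares of all genes called in these fits were not counted. RLE scaling moved the median log2 difference of all genes to -0.27 in PDGFRb breast BrM, -0.15 in PDGFRb lung BrM and 0.27 between sorts in non-tumor brain, and called 3 members in each of the first 2. Depth limits H2-DMb2 and Ciita most.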
